A study of Mus musculus with 4 samples.

Results

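The tibial muscle of Nse-Bmp4 mice 7 days after cardiotoxin injury was compared with the uninjured tibial muscle of the same line, to describe which gene programmes were still away from the day 0 level. Nse-Bmp4 mice carry the mouse Bmp4 coding sequence under the rat neuron-specific enolase promoter, with a viral polyadenylation signal, so the transgene is driven in cells where that promoter is active. The line is a model of heterotopic ossification, the growth of bone inside soft tissue, and can also form such bone without injury as the animals age. The comparison took all 3032 spots of the day 7 section against all 2107 spots of the day 0 section, which are 2 of the 4 Visium sections of the series. Visium counts unique molecular identifiers (UMIs), each standing for 1 captured RNA molecule, in spots that can each hold several cells. All groups were C57BL/6 mice of 6 to 8 weeks with the Nse-Bmp4 genotype; day 0 was uninjured, and the other 3 groups were sampled 1, 3 or 7 days after cardiotoxin, a snake venom toxin that kills muscle fibres and leaves their stem cells to rebuild them. No injured wild-type muscle and no uninjured muscle kept for the same 7 days was among the sections analysed here, so injury, the transgene and time cannot be told apart. The labels state that 3 tibial muscles were mixed per group, but not how these map onto the spots of a section.

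Injured muscle normally passes through a sequence of neutrophils and monocytes, macrophages that clear debris, and satellite cells that divide, fuse and make new fibres carrying embryonic and neonatal myosins before the adult forms return. Bone morphogenetic proteins (BMPs) can turn mesenchymal cells of the muscle interstitium towards cartilage instead. In endochondral ossification such cells condense, make a matrix of type II collagen and aggrecan under the transcription factor Sox9, become hypertrophic with type X collagen, and are replaced by bone made by cells that need Runx2 and osterix (Sp7).

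The day 0 section held 43871586 UMIs and the day 7 section 41832640, with medians of 21029 and 12119.5 UMIs per spot. The day 1 and day 3 sections held 16777832 and 56113066 UMIs. Each day was a single section, so there is no spread between replicates and no p-value for any value given here. Each gene's UMIs were added up across a section and given as counts per 1000000 UMIs (CPM), and the intervals are exact 95% intervals of the ratio of counts, which cover counting error only. In summed spots, fewer cells of a type and less RNA per cell cannot be told apart. The medians of genes per spot were 3710 and 3205.5, and mitochondrial genes held 13.5% and 11.7% of UMIs. Both sections carried the sarcomere genes that define skeletal muscle, at 27.2% of UMIs on day 0 and 15.4% on day 7 for the fast-fibre list. Bmp4 itself, the transgene's product, stood at 416 UMIs or 9.48 CPM on day 0 and 397 UMIs or 9.49 CPM on day 7. Because the transgene ends in a viral polyadenylation signal, a 3' count of Bmp4 cannot check how much of it was transgenic.

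At gene level the day 7 section was tilted upwards. Of 13748 genes with at least 50 UMIs over both sections, 4029 (29.3%) were at least 2-fold higher in CPM on day 7 and 195 (1.42%) were at least 2-fold lower. That rule is what "rose" and "fell" mean below. The median gene stood 0.63 higher on the log2 scale (quartiles 0.24 and 1.10). Ratios scaled by TMM (edgeR's trimmed mean of M-values), which centre on the bulk of the genes, were lower by 0.61 for every gene. With TMM, 1713 genes (12.5%) rose and 753 (5.48%) fell, so that 69.5% of the changed genes were higher in place of 95.4%. TMM values are therefore given beside the CPM values, and a log2 ratio between 0 and 0.61 by CPM lies below 0 with TMM. Where a pair of levels is given, the day 0 section comes first. Across genes, which are not replicates, log2(CPM + 1) of both sections correlated with r = 0.939.

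In amount, contractile messages took less of the library on day 7 and matrix messages more. The genes that were higher on day 7 gained 21.5% of all CPM from those that were lower, and the 10 genes with the greatest falls held 52.9% of all CPM lost. Of these, 9 are fast-fibre genes, led by Acta1 (skeletal muscle actin), which went from 58809.5 to 31408 CPM, 1.87-fold lower. Ckm (muscle creatine kinase) went from 34717 to 19928 CPM and Myh4 (the fast type IIB myosin heavy chain) from 34065 to 20694 CPM, and the tenth gene was mitochondrial mt-Co1 with 25625 and 19439.7 CPM. These falls in CPM were below 2-fold, except for the myosin light chain genes Mylpf (24954 and 11941 CPM) and Myl1 (18399.5 and 8881 CPM). The 10 greatest rises held 11.7% of all CPM gained. Type I collagen led them, with Col1a1 going from 2253 to 10599.9 CPM, 4.71-fold, and Col1a2 from 1961 to 7966 CPM, 4.06-fold. Apoe (a lipid carrier abundant in macrophages), Postn (periostin), Bgn (biglycan) and Fn1 (fibronectin) rose 8.29-fold, 14.6-fold, 7.98-fold and 6.76-fold. Tcap, a titin cap protein of the Z-disc, rose 2.40-fold to 2629 CPM against the direction of the other fibre genes. Sparc and Rplp1 were 1.96-fold and 1.83-fold higher, below the 2-fold rule, and Col3a1 was 1.42-fold higher in CPM but -0.11 on the log2 scale with TMM.

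**Figure D1:**
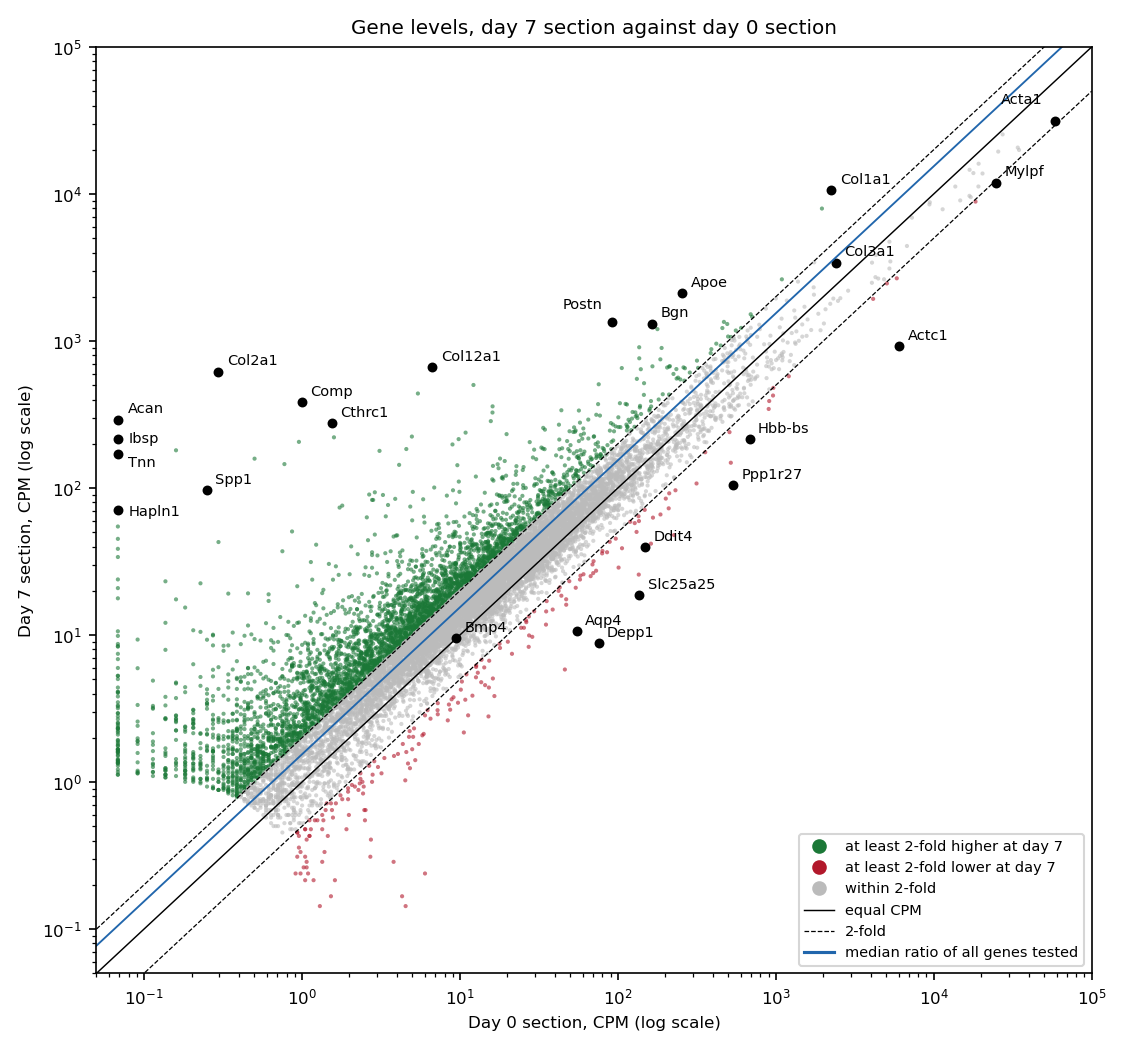
Each point is 1 of 13748 genes, with its level in the day 0 section on the x axis and in the day 7 section on the y axis, both in CPM on log axes. The 4029 genes past 2-fold higher outnumber the 195 past 2-fold lower, and the cartilage matrix genes lie at the far left, with Col2a1 at 0.296 and 618 CPM.

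In ratio, cartilage and bone matrix stood furthest from baseline. Among 2773 non-mitochondrial genes that reached 50 CPM in either section, 534 (19.3%) rose and 52 (1.88%) fell, and 51 rose at least 10-fold while 0 fell that far. The 15 greatest ratios belonged to Acan, Ibsp, Tnn, Col2a1, Col9a1, Hapln1, Matn3, Spp1, Comp, Col9a3, Matn4, Col9a2, Cthrc1, Col11a1 and Col12a1. Acan, which encodes aggrecan, the main proteoglycan of cartilage, had 2 UMIs on day 0 and 12224 on day 7, a ratio of 6409.9-fold (95% counting interval 1774 to 52935). Ibsp (bone sialoprotein, a mineral-binding protein of bone) had 1 UMI and 9061 UMIs, 9503-fold (95% counting interval 1705 to 375375). Tnn, which encodes the matricellular protein tenascin-W, had 2 and 7128. Cthrc1, a secreted collagen triple helix repeat protein, rose from 1.55 to 276 CPM, 178-fold.

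The 15 lowest ratios were a different kind of gene. Depp1, a target of FoxO transcription factors, went from 75.7 to 8.84 CPM, 8.55-fold (95% counting interval 7.68 to 9.55) lower. Slc25a25, a calcium-regulated mitochondrial ATP and phosphate carrier, was 7.34-fold lower, and cardiac actin Actc1 6.55-fold lower. Aqp4, the water channel of the fast-fibre membrane, was 5.13-fold lower. Ddit4, an inhibitor of mTORC1 induced by stress and glucocorticoids, fell 3.73-fold, and Nfil3, a transcription factor tied to the circadian clock, fell 3.51-fold. Ppp1r3c, which targets a phosphatase to glycogen, fell 3.49-fold, and Gadd45g, a growth arrest gene, fell 2.82-fold. Ppp1r27 (5.17-fold), Tceal7 (3.87-fold) and Mettl21c (2.89-fold, a muscle methyltransferase) were also in this set, with the unnamed gene models B230312C02Rik (5.26-fold) and 2310065F04Rik (4.74-fold). Haemoglobin genes Hbb-bs and Hba-a1 were 3.19-fold and 2.93-fold lower, though near-identical copies share reads between the adult globin genes. All 15 also fell with TMM.

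Promoters of 6 genes from the ends of these ratios and from the fibre programme are printed here, since their messages moved furthest or in opposite directions within muscle. Each runs from 250 bases before to 50 bases after a RefSeq transcript start in GRCm38.p6, 5' to 3' on the gene's strand. Acan lies at chr7:79052976-79053275 (plus strand), Ibsp at chr5:104299037-104299336 (plus), Myh3 (embryonic myosin) at chr11:67078050-67078349 (plus), Actc1 at chr2:114052826-114053125 (minus), Acta1 at chr8:123894726-123895025 (minus) and Depp1 at chr6:116650434-116650733 (plus). Capitals mark matches, on either strand, to TATAAA, to the E-box CAGCTG, to ACAATG, which is a core that SOX proteins can bind, and to the CArG box by name.
Acan: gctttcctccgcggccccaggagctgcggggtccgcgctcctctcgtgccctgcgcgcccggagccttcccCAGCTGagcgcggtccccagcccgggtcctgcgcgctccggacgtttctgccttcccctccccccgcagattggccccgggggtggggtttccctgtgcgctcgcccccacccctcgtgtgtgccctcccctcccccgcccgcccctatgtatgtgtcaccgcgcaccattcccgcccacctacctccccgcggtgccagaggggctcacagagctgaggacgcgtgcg
Ibsp: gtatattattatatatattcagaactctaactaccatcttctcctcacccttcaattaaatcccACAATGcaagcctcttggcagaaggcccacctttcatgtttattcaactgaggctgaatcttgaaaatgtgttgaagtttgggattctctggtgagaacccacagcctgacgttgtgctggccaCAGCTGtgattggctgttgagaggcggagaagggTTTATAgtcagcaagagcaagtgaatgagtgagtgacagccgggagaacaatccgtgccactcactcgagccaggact
Myh3: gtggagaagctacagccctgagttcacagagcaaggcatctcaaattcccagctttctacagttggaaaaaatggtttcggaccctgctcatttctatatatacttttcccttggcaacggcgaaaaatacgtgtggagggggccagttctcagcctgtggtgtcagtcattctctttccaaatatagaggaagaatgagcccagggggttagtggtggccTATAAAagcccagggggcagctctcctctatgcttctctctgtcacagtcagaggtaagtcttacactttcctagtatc
Actc1: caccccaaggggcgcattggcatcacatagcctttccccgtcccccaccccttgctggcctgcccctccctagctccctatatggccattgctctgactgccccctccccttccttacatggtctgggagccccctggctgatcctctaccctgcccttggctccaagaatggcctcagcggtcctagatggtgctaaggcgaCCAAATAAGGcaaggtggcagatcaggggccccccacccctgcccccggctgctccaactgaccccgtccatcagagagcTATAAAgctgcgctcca
Acta1: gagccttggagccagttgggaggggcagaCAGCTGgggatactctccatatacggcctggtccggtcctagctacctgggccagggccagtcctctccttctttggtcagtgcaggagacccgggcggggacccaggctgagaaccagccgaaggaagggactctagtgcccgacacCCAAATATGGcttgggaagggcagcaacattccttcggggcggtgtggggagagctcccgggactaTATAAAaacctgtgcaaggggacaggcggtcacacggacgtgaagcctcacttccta
Depp1: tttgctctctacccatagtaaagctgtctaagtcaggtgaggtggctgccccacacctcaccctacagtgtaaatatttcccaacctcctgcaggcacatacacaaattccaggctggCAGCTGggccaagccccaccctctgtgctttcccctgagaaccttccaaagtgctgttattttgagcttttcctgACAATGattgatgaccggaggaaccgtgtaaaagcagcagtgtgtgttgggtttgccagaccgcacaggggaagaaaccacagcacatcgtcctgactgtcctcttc
TATAAA lay 29 bases before the start in Myh3 and, on the reverse strand, 28 bases before it in Ibsp. The CArG box, which serum response factor can bind, was present in Actc1 (47 bases before the start) and Acta1 (73 bases before), both of which were lower on day 7. TATAAA was also found 7 bases before the start in Acta1 and 33 bases after it in Actc1. The Acan window held 1 CAGCTG and no TATAAA. Over 32851 RefSeq promoters of the same length, 13.6% held TATAAA, 16.3% CAGCTG, 12.6% ACAATG and 1.63% a CArG box. A match describes these letters only.

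Programmes were then read through 68 gene lists with 901 genes among the features, of which 843 had enough UMIs and 58 did not. A list counted as above baseline where the median log2 ratio of its genes was at least 1, as below at -1 or less, and as near where it lay within 0.5 of 0. By CPM 36 lists were above, 1 was below, 17 were near and 14 lay between these bounds. With TMM 22 of the 36 were still above, 5 lists were below, 24 were near and 17 lay between. By theme, 144 of 180 immune genes, 84 of 137 matrix and stroma genes and 82 of 123 cartilage, bone and signalling genes rose, beside 29.3% of all genes. The same count was 25 of 64 for stress and clock genes, 26 of 103 for growth genes, 19 of 97 for muscle genes, 13 of 72 for vessel, nerve, fat and blood genes and 0 of 67 for energy metabolism. By CPM, falls numbered 10 in muscle, 7 in the vessel and nerve group, 3 each in metabolism and in cartilage and bone, 2 in stress, 1 in immune and 0 in the matrix and growth lists, beside 1.42% of all genes. With TMM 12.5% of all genes rose and 5.48% fell. The rises then numbered 91 of 180 immune, 60 of 137 matrix and 59 of 123 cartilage, bone and signalling genes. They numbered 13 of 64 stress, 7 of 103 growth, 15 of 97 muscle, 8 of 72 vessel and nerve and 0 of 67 metabolism genes. Falls with TMM numbered 29 of 97 in muscle, 32 of 67 in metabolism, 10 of 72 in the vessel and nerve group, 6 of 180 in immune, 5 of 123 in cartilage and bone, 4 of 64 in stress, 4 of 137 in matrix and 0 of 103 in growth lists. Below, a count after a TMM median is that of the list's genes past 2-fold on that scale.

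**Figure D2:**
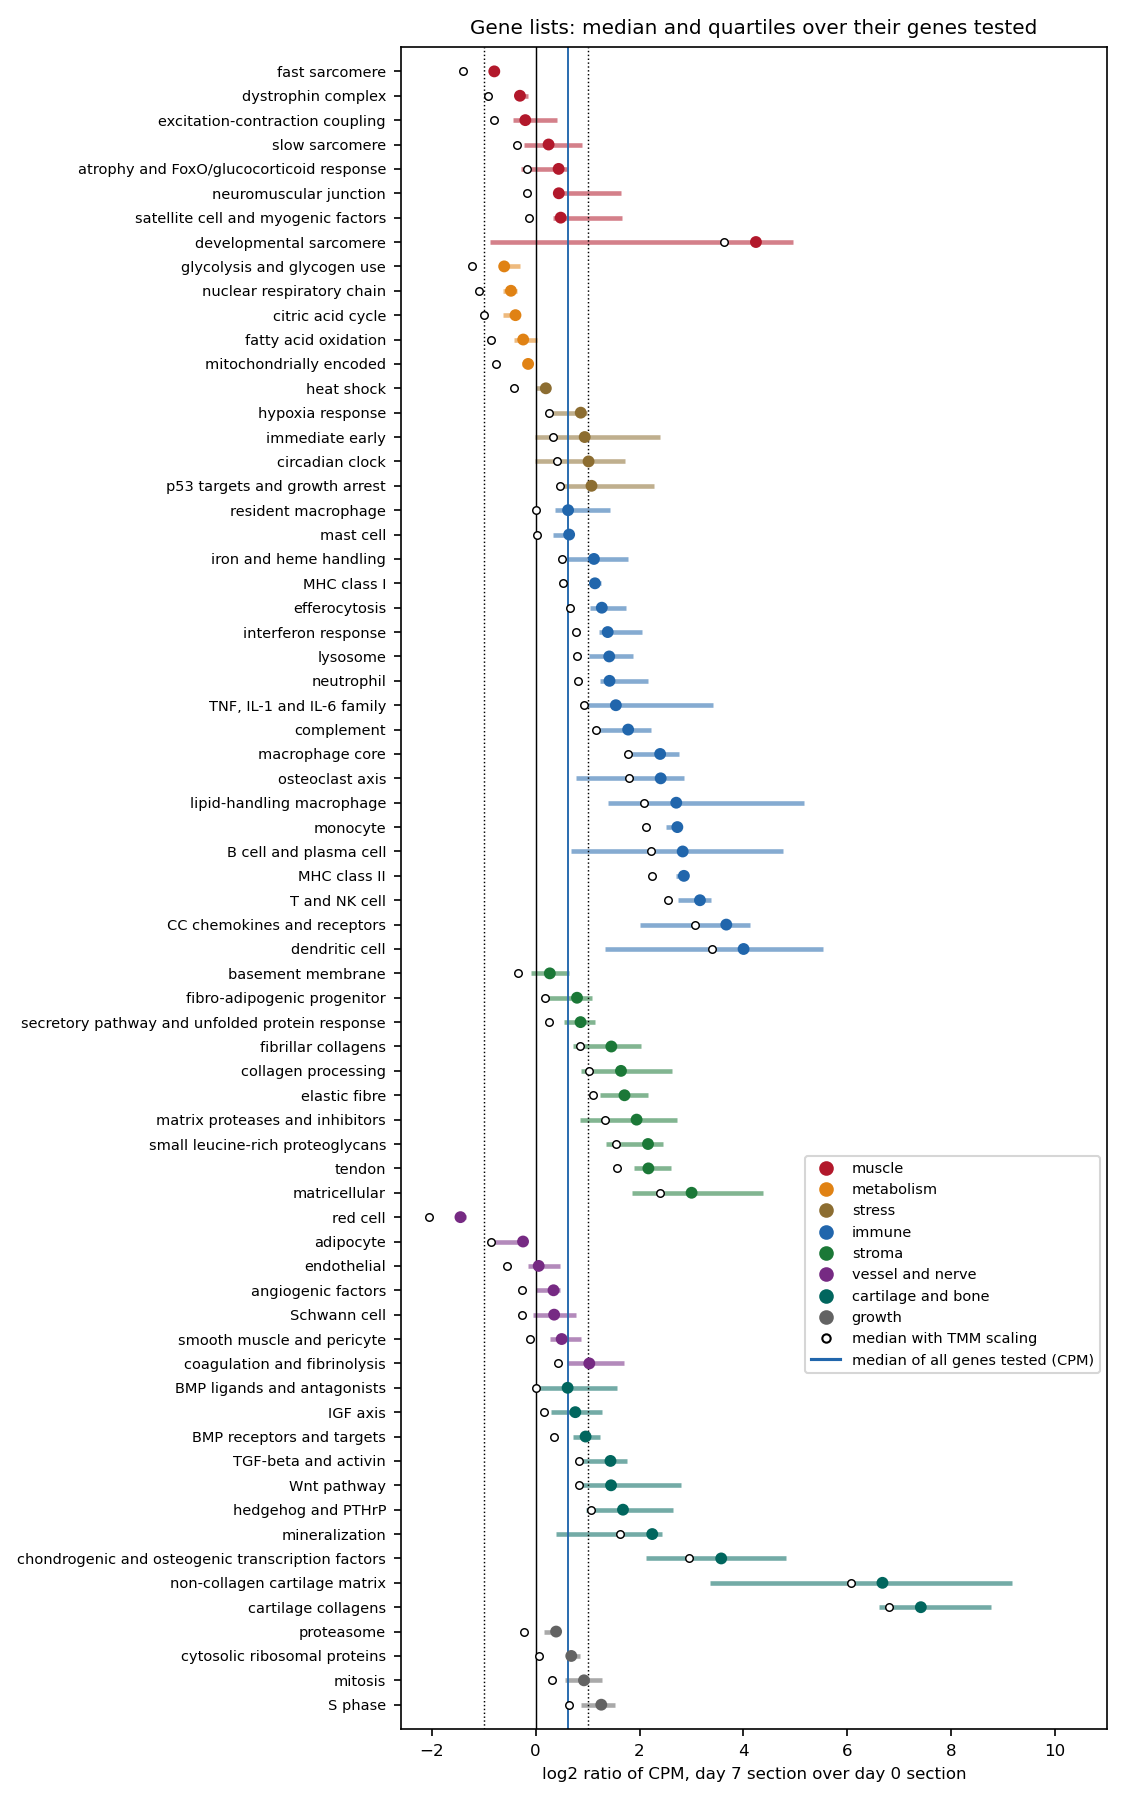
The x axis is the log2 ratio of CPM, day 7 section over day 0 section. Filled points are the medians of 68 gene lists coloured by theme, bars span the quartiles over the genes of a list, open points are the same medians with TMM scaling, and dotted lines mark 2-fold. The cartilage lists lie furthest right with medians of 7.42 and 6.68, and the red cell list is the only one left of -1 by CPM.

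Cartilage matrix messages were nearly absent on day 0 and present in quantity on day 7. All 8 cartilage collagen genes rose, with a median log2 ratio of 7.42 (6.80 with TMM, 8 higher), and their summed level went from 10.3 to 1562 CPM. Col2a1, the defining collagen of cartilage, went from 13 UMIs and 0.296 CPM to 25868 UMIs and 618 CPM, a ratio of 2087-fold (95% counting interval 1220.1 to 3919.8). The type IX collagen genes, whose product coats type II fibrils, rose together, with Col9a1 at 0.160 and 181 CPM, Col9a2 at 0.775 and 146 CPM and Col9a3 at 0.501 and 158 CPM. Col11a1 and Col11a2, minor fibrillar collagens of cartilage, rose 139-fold and 34.9-fold, and Col27a1 29.4-fold. Col10a1, the collagen of hypertrophic chondrocytes, had 0 UMIs on day 0 and 444 on day 7, at least 155-fold higher against a floor of 3 UMIs. Its day 7 level was 10.6 CPM. Markers of tendon, a tissue next to muscle that shares some cartilage genes, rose as well (9 of 10, summing to 249 CPM on day 0 and 1636 CPM on day 7, with none at 0), and their part in the cartilage values was not tested.

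Of 14 non-collagen cartilage genes 13 rose, with a median of 6.68 (6.06 with TMM, 12 higher). Comp (cartilage oligomeric matrix protein) went from 1.003 to 383 CPM, 382-fold, and the matrilin gene Matn4 from 0.957 to 206 CPM, 215-fold. Hapln1, the link protein that ties aggrecan to hyaluronan, had 1 UMI on day 0 and 2983 on day 7. Snorc, a proteoglycan of chondrocytes, had 0 and 1888 UMIs, at least 660.0-fold higher. Matn1 and Ucma, also cartilage proteins, had 0 UMIs on day 0 and 139 and 133 on day 7. Prg4, the lubricin of joint surfaces, rose from 1.14 to 31.4 CPM, 27.5-fold. Cilp, expressed in tendon and cartilage and already at 92.98 CPM on day 0, was 1.99-fold higher and did not pass 2-fold.

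The transcription factors of both lineages were raised too. Of 11 with enough UMIs 9 rose, with a median of 3.57 (2.96 with TMM, 9 higher and 1 lower), and 4 others of the list had too few. Sox9 went from 3.90 to 84.5 CPM, 21.7-fold (interval 18.6 to 25.4), and its partner Sox5 from 0.593 to 2.92 CPM, 4.92-fold. Sp7 had 1 UMI on day 0 and 1615 on day 7, 1694-fold (95% counting interval 304 to 66939). Runx2 rose from 0.274 to 9.94 CPM, 36.4-fold, Runx1 from 4.01 to 47.7 CPM, 11.9-fold, and Dlx5, a homeobox gene of bone-forming cells, had 1 UMI and 172 UMIs. Sox6 was the exception, at 59.9 and 40.9 CPM, 1.47-fold lower and past 2-fold only with TMM. Sox6 also acts in muscle, where it represses slow-fibre genes. Msx1 was close to its day 0 level with 7.84 and 9.75 CPM.

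Mineralization genes included raised members and members near absent from both sections. Of 9 with enough UMIs 6 rose, with a median of 2.24 (1.63 with TMM, 5 higher). Besides Ibsp, the early osteoblast enzyme Alpl (alkaline phosphatase) rose from 12.1 to 65.5 CPM, 5.42-fold, Smpd3 (a sphingomyelinase needed for skeletal mineral) from 3.51 to 76.7 CPM, 21.9-fold, Enpp1, which makes the mineral inhibitor pyrophosphate, from 4.38 to 21.5 CPM, 4.91-fold, and Mgp (matrix Gla protein, an inhibitor of mineral in cartilage) from 189 to 897 CPM, 4.74-fold. Several genes of mature osteoblasts and osteocytes were near absent, though Ibsp, also a bone matrix gene, was not. Bglap (osteocalcin) had 3 UMIs on day 0 and 2 on day 7, Bglap2 had 0 in both, Dmp1 31 and 18, Mepe 0 and 4, and Phospho1 7 and 4. The phosphate transporters Slc20a1 and Slc20a2 differed by 1.05-fold and 1.30-fold.

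Growth-plate signalling was among what had risen. Of 11 hedgehog and parathyroid hormone-related protein genes 8 rose, with a median of 1.68 (1.07 with TMM, 6 higher). Ihh, the hedgehog ligand of prehypertrophic chondrocytes, went from 6 to 507 UMIs, 88.6-fold (95% counting interval 40.4 to 243), and Pth1r, the receptor that keeps chondrocytes from maturing, from 4.58 to 184 CPM, 40.2-fold. The hedgehog target Gli1 rose 7.15-fold and the receptor Ptch1, another hedgehog target, 2.06-fold. Pthlh, the ligand of Pth1r, rose from 0.957 to 5.16 CPM, 5.39-fold.

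BMP ligands and antagonists had a lower median ratio than BMP receptors and targets, a difference that has no test here. Of 12 ligands and antagonists 5 rose and 1 fell, with a median of 0.61 (0.00 with TMM, 3 higher and 2 lower) beside 0.63 over all genes. Bmp4 (1.001-fold), Bmp2 (0.944-fold) and Bmp7 (0.621-fold) stood at these multiples of day 0 and did not pass 2-fold. The antagonists noggin (Nog, 2.77-fold), Bmper (3.52-fold) and Chrdl1 (3.74-fold) rose. Among 16 receptors, SMADs and targets 8 rose (median 0.96, or 0.35 with TMM, 3 higher). The direct BMP targets Id1, Id2 and Id3, which block differentiation factors of the helix-loop-helix family, rose 2.49-fold, 6.10-fold and 5.53-fold, with Id3 at 33.6 and 186 CPM. The inhibitory Smad6 and Smad7 rose 2.13-fold and 2.32-fold. The receptor genes Bmpr1a and Bmpr2 stood at 1.03-fold and 1.37-fold of day 0.

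Of 13 TGF-beta and activin genes 9 rose (median 1.44, or 0.83 with TMM, 4 higher), among them Tgfb1 (4.06-fold), Tgfb3 (2.93-fold) and the activin subunit Inhba, from 0.935 to 21.5 CPM, 22.996-fold. Myostatin (Mstn), which limits muscle size, was at 44.2 and 41.7 CPM. Of 17 Wnt genes 11 rose (median 1.45, or 0.84 with TMM, 7 higher). These were led by secreted modulators, with Dkk3 from 1.23 to 41.2 CPM, 33.5-fold, Sfrp2 from 15.7 to 285 CPM, 18.2-fold and Sfrp1 from 5.93 to 63.9 CPM, 10.8-fold. The Wnt target Axin2, at 3.35 and 5.26 CPM, did not pass 2-fold. Of 12 IGF genes 5 rose and 2 fell (median 0.76, or 0.15 with TMM, 2 higher and 2 lower). Igf1 and Igf2, growth factors of regenerating muscle, rose 2.30-fold and 2.87-fold, and Igfbp4 6.18-fold. Igfbp3 fell 2.29-fold and the RNA-binding protein gene Igf2bp2 2.41-fold.

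In muscle, fast-fibre contractile genes were lower, slow-fibre genes were near baseline and 4 of 7 developmental genes were higher. All 14 fast sarcomere genes were lower on day 7, but only 3 passed 2-fold by CPM (13 with TMM), and the median was -0.80 (-1.41 with TMM, 0 higher and 13 lower). Their summed level went from 272260.0 to 154162 CPM. The smallest fall was in Myh1, the type IIX myosin, at 2873 and 2200.1 CPM. Of 10 slow sarcomere genes 3 rose, the slow troponin genes Tnni1 (5.56-fold), Tnnt1 (2.75-fold) and Tnnc1 (2.02-fold), while slow myosin Myh7 stood at 89.3 and 113 CPM (list median 0.25, or -0.36 with TMM, 1 higher and 2 lower). The developmental list was split. Embryonic myosin Myh3 rose from 1.73 to 73.7 CPM, 42.5-fold, perinatal myosin Myh8 from 3.10 to 179 CPM, 57.8-fold, the embryonic light chain Myl4 from 16.1 to 359.6 CPM, 22.3-fold and cardiac troponin Tnnt2 from 3.40 to 64.2 CPM, 18.9-fold. Against them Actc1 fell from 6066 to 926 CPM and Mybph, a myosin-binding protein, from 961 to 426 CPM. The list's median was therefore 4.24 while its summed level, most of it Actc1, fell from 7420.4 to 2273 CPM, so median and sum differ in sign.

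Regulators of muscle formation were close to day 0, with fusion genes still raised. The 12 satellite cell and myogenic genes had a median of 0.48 (-0.13 with TMM, 3 higher), and 4 rose, a share near the 29.3% of all genes. Pax7, the satellite cell factor, was at 2.35 and 2.96 CPM, Myod1 at 41.4 and 56.9 CPM and myogenin (Myog) at 51.6 and 73.3 CPM, none past 2-fold. The fusogens myomaker (Mymk) and myomixer (Mymx) rose 3.79-fold and 5.12-fold, with Ncam1 at 5.03-fold and Myf5 at 2.97-fold. Of 12 genes of the neuromuscular junction 4 rose, again beside 29.3% of all genes. The greatest ratio was that of Chrng, the fetal gamma subunit of the acetylcholine receptor, from 0.889 to 11.5 CPM, 12.99-fold, and Chrna1 and Chrnd rose 3.92-fold and 3.32-fold. The adult subunit Chrne was at 20.6 and 23.04 CPM. The list median was 0.45 (-0.17 with TMM, 4 higher and 1 lower).

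Calcium handling genes were near day 0 as a list, with 2 of 13 risen. Sln (sarcolipin, an inhibitor of the sarcoplasmic calcium pump) went from 12.2 to 502 CPM, 41.2-fold, and the slow pump gene Atp2a2 from 86.02 to 196 CPM, 2.28-fold. The fast pump gene Atp2a1 was at 17839 and 13883 CPM, and the calcium store protein Casq1 fell 2.05-fold. The 13 genes had a median of -0.20 (-0.81 with TMM, 1 higher and 4 lower). The 14 genes of the dystrophin complex had a median of -0.30 (-0.92 with TMM, 0 higher and 3 lower), with Dmd (dystrophin) at 52.5 and 53.5 CPM and Utrn (utrophin) at 22.02 and 31.6 CPM. Aqp4 was the only one of these past 2-fold by CPM. The 15 atrophy and glucocorticoid genes were near baseline as a list (median 0.44, or -0.17 with TMM, 2 higher and 3 lower) but not gene by gene. Depp1, Ddit4 and Cebpd fell 8.55-fold, 3.73-fold and 2.28-fold, while atrogin-1 (Fbxo32), a ubiquitin ligase of muscle wasting, rose 3.12-fold. MuRF1 (Trim63), the other such ligase, was at 278 and 223 CPM.

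Energy metabolism was lower in small steps. Of 67 genes in 5 lists 0 rose and 3 fell by CPM. The medians were -0.61 (-1.22 with TMM) for glycolysis, -0.48 (-1.09 with TMM) for nuclear-encoded respiratory chain genes, -0.39 (-1.001 with TMM) for the citric acid cycle, -0.24 (-0.85 with TMM) for fatty acid oxidation and -0.15 (-0.76 with TMM) for the 13 mitochondrially encoded genes. With TMM 9 of 13 glycolysis genes, 12 of 17 respiratory chain genes and 6 of 11 citric acid cycle genes were past 2-fold lower. The 3 that fell by CPM were Gapdh (2.19-fold, a gene with many near-identical copies), Ucp3 (a mitochondrial uncoupling protein, 2.37-fold) and Pdk4 (a brake on pyruvate oxidation induced by fasting, 2.22-fold). Pfkm, the muscle phosphofructokinase, went the other way, at 1738 and 2319 CPM.

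Myeloid genes were still well above day 0. Of 12 core macrophage genes 11 rose, with a median of 2.40 (1.78 with TMM, 9 higher). Lyz2 (lysozyme) went from 137 to 907 CPM, 6.64-fold, Cd68 (a lysosomal glycoprotein) from 7.18 to 56.6 CPM, 7.89-fold and Ctss (cathepsin S) from 9.85 to 111 CPM, 11.2-fold. Genes of macrophages that take up lipid and debris were also raised, with 9 of 10 risen and a median of 2.71 (2.09 with TMM, 7 higher). Trem2, a lipid receptor, rose from 0.866 to 50.7 CPM, 58.5-fold, Gpnmb from 1.80 to 75.97 CPM, 42.2-fold and Lgals3 (galectin-3) from 8.98 to 198 CPM, 22.04-fold. Spp1 (osteopontin, made by such macrophages and by bone cells) went from 11 UMIs to 4055, 387-fold (95% counting interval 216 to 775). All 5 monocyte genes with enough UMIs rose (median 2.73, or 2.12 with TMM, 4 higher), with Ccr2 at 3.24 and 22.6 CPM. Markers of resident macrophages were mixed, with 4 of 9 higher and 1 lower (median 0.62, or 0.01 with TMM, 1 higher and 2 lower). Among them Lyve1 was at 9.32 and 12.1 CPM, Mrc1 rose 2.81-fold and Retnla fell 2.34-fold.

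Chemokines were raised while neutrophil genes were scarce. Of 12 CC chemokine and receptor genes 10 rose (median 3.67, or 3.06 with TMM, 9 higher). Ccl7 went from 8 to 644 UMIs, Ccl2, which draws monocytes, from 0.957 to 12.2 CPM, 12.7-fold, and the lymphoid chemokine Ccl21a from 6.88 to 101 CPM, 14.6-fold. Ccl3 and Ccl4 had 0 UMIs on day 0 and 57 and 117 on day 7. Of 11 neutrophil genes 7 had too few UMIs, with Ly6g at 0 UMIs in both sections and S100a9 at 22 and 24. The other 4 were past 2-fold higher by CPM (1 with TMM), with the protease gene Mmp9 at 4.83 and 11.9 CPM. Of 9 genes of the TNF, IL-1 and IL-6 group 6 rose (median 1.54, or 0.93 with TMM, 4 higher and 1 lower). Socs3, an inhibitor induced by interleukin-6 family cytokines, rose from 3.37 to 36.05 CPM, 10.7-fold. Il1b and its antagonist Il1rn had 1 UMI each on day 0 and 93 and 99 on day 7, while Tnf (5 and 7 UMIs) and Il6 (1 and 15) had too few to enter.

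Both classes of antigen presentation had medians above baseline by CPM, class I only by CPM. All 7 MHC class II genes rose (median 2.85, or 2.24 with TMM, 7 higher), among them Cd74 (the invariant chain) from 75.7 to 508 CPM, 6.71-fold and the master regulator Ciita from 0.251 to 3.99 CPM, 15.9-fold. Of 11 class I genes 10 rose, by less (median 1.14, or 0.53 with TMM, 2 higher), with B2m at 322 and 657 CPM. Of 17 interferon-response genes 16 rose (median 1.39, or 0.77 with TMM, 7 higher), from Bst2 at 2.06-fold to the chemokine Cxcl10 at 36.8-fold. Dendritic cell genes had a median of 4.003 (3.39 with TMM, 3 higher) over 5 genes at low levels, with Itgax from 0.228 to 10.5 CPM, 46.1-fold and Ccr7 from 2 to 221 UMIs. All 7 T and NK cell genes that entered rose (median 3.16, or 2.55 with TMM, 7 higher), among them the chemokine Ccl5 from 0.501 to 9.39 CPM, 18.7-fold. The other 11 had too few UMIs, and Cd8a had 4 and 11. Of 6 B cell and plasma cell genes 4 rose (median 2.83, or 2.22 with TMM, 3 higher and 1 lower), among them the immunoglobulin light chains Igkc at 15 and 801 UMIs and Iglc2 at 0 and 91, while the plasma cell gene Mzb1 was at 1.21 and 0.908 CPM and Ighm at 39.7 and 51.3 CPM. No mast cell gene passed 2-fold (median 0.64, or 0.03 with TMM, 0 higher).

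Clearance genes were above baseline by CPM as 4 lists, of which complement was also above with TMM. Of 15 complement genes 13 rose (median 1.78, or 1.17 with TMM, 8 higher), with C3 from 42.6 to 214 CPM, 5.02-fold and the C1q genes C1qa, C1qb and C1qc at 4.04-fold, 4.49-fold and 3.85-fold. Of 15 lysosomal genes 12 rose (median 1.42, or 0.80 with TMM, 6 higher), with cathepsin B (Ctsb) at 459 and 1226 CPM. Of 11 efferocytosis genes 10 rose (median 1.27, or 0.66 with TMM, 3 higher), with Gas6, a bridge to dying cells, from 60.5 to 254 CPM, 4.20-fold. Of 11 iron genes 6 rose (median 1.12, or 0.51 with TMM, 4 higher and 1 lower), among them Hmox1, which degrades heme, at 4.51-fold. Osteoclast genes included raised members, members within 2-fold and members too sparse to enter. Atp6v0d2, a proton pump subunit, went from 1 UMI to 352, Ctsk (cathepsin K, which cuts collagen in bone) from 25.03 to 133 CPM, 5.30-fold, Acp5 (the tartrate-resistant acid phosphatase) from 6.06 to 31.6 CPM, 5.20-fold, and Tnfsf11 (RANKL, the osteoclast differentiation factor) from 1 UMI to 68. The fusion genes Dcstamp and Ocstamp had 10 and 25 UMIs on day 7 and did not enter. Of the 9 that entered 6 rose and 3 stayed within 2-fold by CPM, with a median of 2.41 (1.79 with TMM, 6 higher and 1 lower).

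Interstitial matrix gained most in amount, the fibrillar list having the greatest gain in summed CPM among the 68 lists. The 9 fibrillar and type VI collagen genes went from a summed 7909.8 CPM to 25233 CPM, with 6 risen and a median of 1.46 (0.84 with TMM, 4 higher and 1 lower). The fibril-nucleating type V genes Col5a1 and Col5a2 rose 4.04-fold and 4.06-fold, while Col5a3 was lower, at 121 and 89.4 CPM. Of 19 collagen processing genes 13 rose (median 1.64, or 1.03 with TMM, 10 higher). P4ha3, a prolyl hydroxylase, rose from 0.228 to 22.5 CPM, 98.7-fold, Plod2, which makes the lysine cross-links of bone and scar collagen, from 5.86 to 83.9 CPM, 14.3-fold, Lox (lysyl oxidase) from 16.05 to 115 CPM, 7.14-fold, and Fkbp10, a collagen chaperone, from 17.96 to 159 CPM, 8.84-fold. Of 12 matricellular genes 11 rose (median 3.002, or 2.39 with TMM, 9 higher), including Tnc (tenascin-C) from 4.97 to 224 CPM, 45.1-fold, Thbs2 from 9.82 to 215 CPM, 21.9-fold and periostin. Of 8 small proteoglycan genes 7 rose (median 2.16, or 1.55 with TMM, 5 higher), with decorin (Dcn) the exception at 546 and 622 CPM. Elastic fibre genes rose in 12 of 15 cases (median 1.71, or 1.10 with TMM, 8 higher), with Ltbp2 from 0.296 to 42.9 CPM, 145-fold.

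Tendon genes were raised as well, 9 of 10 being higher (median 2.17, or 1.56 with TMM, 9 higher). Scleraxis (Scx), the tendon transcription factor, rose from 5.27 to 24.7 CPM, 4.69-fold, tenomodulin (Tnmd) from 7.18 to 27.6 CPM, 3.84-fold, fibromodulin (Fmod) from 16.1 to 326 CPM, 20.3-fold and Col12a1 from 6.70 to 665 CPM, 99.3-fold. Of 18 proteases and inhibitors 13 rose (median 1.94, or 1.33 with TMM, 11 higher and 1 lower). Mmp12, the macrophage elastase, had 0 UMIs on day 0 and 364 on day 7. Mmp13, the collagenase of hypertrophic cartilage, went from 5 to 205 UMIs, and Timp1 from 5.04 to 94.2 CPM, 18.7-fold, while Timp4 was lower at 44.4 and 22.8 CPM. By contrast, genes that mark fibro-adipogenic progenitors, the resting mesenchymal cells of muscle, were closer to day 0 (median 0.80, or 0.18 with TMM, 1 higher), with 4 of 14 higher by CPM. Pdgfra was at 24.1 and 38.4 CPM and Cd34 at 127 and 146 CPM, but Adam12, which marks activated progenitors, rose from 2.78 to 36.6 CPM, 13.2-fold. Basement membrane genes were near baseline (median 0.27, or -0.34 with TMM, 1 higher and 2 lower). Secretory pathway genes had a median of 0.86 (0.25 with TMM, 2 higher), with 7 of 20 higher.

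Vessel and nerve genes had largely the day 0 share of the library. The 13 endothelial genes had a median of 0.06 (-0.55 with TMM, 0 higher and 1 lower), with Pecam1 at 90.3 and 93.4 CPM and Cdh5 (VE-cadherin) at 116 and 86.7 CPM, and only Plvap, the diaphragm protein of fenestrated vessels, rose (2.27-fold). The medians were 0.34 (-0.27 with TMM, 1 higher and 1 lower) for angiogenic factors, 0.50 (-0.11 with TMM, 2 higher) for smooth muscle and pericyte genes and 0.36 (-0.26 with TMM, 1 higher) for Schwann cell genes, so each of these changes sign with TMM. Vegfa, the main angiogenic factor, was at 94.1 and 70.5 CPM. S100b was the largest Schwann list change, from 2.30 to 16.8 CPM, 7.28-fold, and chondrocytes express it too. Adipocyte genes had a median of -0.24 (-0.86 with TMM, 0 higher and 3 lower), with 3 of 10 lower, among them resistin (Retn, 2.87-fold). Red cell genes were the only list below baseline by CPM, at -1.45 (-2.06 with TMM, 0 higher and 5 lower), and summed to 0.148% of day 0 UMIs and 0.0609% of day 7 UMIs. Of 12 coagulation genes 6 rose (median 1.03, or 0.42 with TMM, 4 higher), with Plaur, the urokinase receptor, from 1.57 to 9.82 CPM, 6.25-fold.

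Clock genes differed in both directions. Of 15, 8 rose and 2 fell (median 1.02, or 0.41 with TMM, 4 higher and 2 lower). Dbp went from 9.05 to 96.6 CPM, 10.7-fold, Per3 from 3.62 to 21.8 CPM, 6.02-fold and Per2 from 4.42 to 20.1 CPM, 4.55-fold, all genes driven by the BMAL1 and CLOCK pair or its outputs, while Arntl, which encodes BMAL1, fell 2.76-fold (27.4 and 9.94 CPM) and Npas2 2.61-fold. Clock was at 19.3 and 19.8 CPM. The clock time of sampling was not given in the sources used here, so its part in these values was not tested. Heat shock genes were near baseline (median 0.20, or -0.42 with TMM, 0 higher), with Cryab (alpha-B crystallin) at 648 and 644 CPM. Of 12 immediate early genes 6 rose (median 0.94, or 0.33 with TMM, 4 higher and 1 lower), from Ier2 at 2.09-fold to Fosb at 8.63-fold, and Nr4a1 was lower at 247 and 154 CPM. Of 13 p53 and growth arrest genes 7 rose (median 1.07, or 0.46 with TMM, 4 higher and 1 lower). Cdkn2a, a locus of cell cycle arrest, had 4 and 140 UMIs, and Cdkn1a was at 64.4 and 90.3 CPM. The hypoxia list had a median of 0.87 (0.26 with TMM, 1 higher), with Hif1a from 23.6 to 75.1 CPM, 3.18-fold.

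Division genes rose in part by CPM and mostly stayed within 2-fold with TMM. Of 19 S phase genes 13 rose (median 1.26, or 0.65 with TMM, 4 higher), with Mcm5, a subunit of the replicative helicase, from 4.97 to 15.5 CPM, 3.12-fold. Of 19 mitosis genes 9 rose (median 0.93, or 0.32 with TMM, 2 higher), with Cdk1 from 7.73 to 26.1 CPM, 3.38-fold and Mki67 at 11.6 and 16.1 CPM. Cytosolic ribosomal protein genes, which include many near-identical copies, had a median of 0.69 (0.07 with TMM, 1 higher), near that of all genes, with 4 of 40 higher by CPM. In the fibre-rich spots described below, 0 genes of the S phase and mitosis lists rose, beside 6.95% of all genes there. Of 19 S phase genes 0 fell and of 18 mitosis genes 3 fell, beside 1.81% of all genes. The list medians there were 0.30 and -0.46. No proteasome gene of 25 passed 2-fold (median 0.39, or -0.22 with TMM, 0 higher).

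The day 1 and day 3 sections show what the day 7 levels followed. Among the 36 lists above baseline on day 7, 17 had their highest summed CPM on day 7, 14 on day 3, 4 on day 1 and 1 on day 0. The cartilage collagens stood at 10.3, 7.03, 12.2 and 1562 CPM on days 0, 1, 3 and 7, and the fibrillar collagens at 7909.8, 1027, 5904 and 25233 CPM. Both were at their highest at the last time sampled. The macrophage core list went through 304, 1826, 7921 and 1569.6 CPM and the lipid-handling list through 432, 1614, 9247 and 2936 CPM, so that day 7 lay between day 3 and day 0. CC chemokines stood at 82.7, 1546, 1259.6 and 309 CPM, with the peak on day 1. Neutrophil genes went through 7.13, 186, 65.2 and 21.3 CPM. S phase genes stood at 138, 398, 730.0 and 268 CPM and mitosis genes at 90.6, 98.9, 527 and 174 CPM, highest on day 3.

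Some lists had swung far in summed level and were back near their start. Atrophy and glucocorticoid genes summed to 1606, 7397, 6616 and 1542 CPM. By gene, 2 of these 15 were past 2-fold higher on day 7 and 3 past 2-fold lower. Among the latter, Depp1 stood at 75.7, 15.02, 20.4 and 8.84 CPM, lowest on day 7. Heat shock genes went through 2406, 11019.7, 6424 and 2547 CPM, within which Cryab stood at 648, 6631, 2760.2 and 644 CPM. Fast-fibre contractile genes were not back at their day 0 levels. The fast sarcomere list, at 272260.0, 152121, 89682 and 154162 CPM, was lowest on day 3. Excitation-contraction coupling genes stood at 26737, 9342, 7317 and 20432 CPM, though their day 7 median was near day 0 by CPM (-0.20, or -0.81 with TMM). Embryonic myosin Myh3 stood at 1.73, 1.19, 107 and 73.7 CPM, and Actc1 at 6066, 246, 143 and 926 CPM, still low on day 7. Bmp4 stood at 9.48, 2.68, 4.99 and 9.49 CPM. All 4 days are single sections, and the comparisons share the day 0 section.

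**Figure D3:**
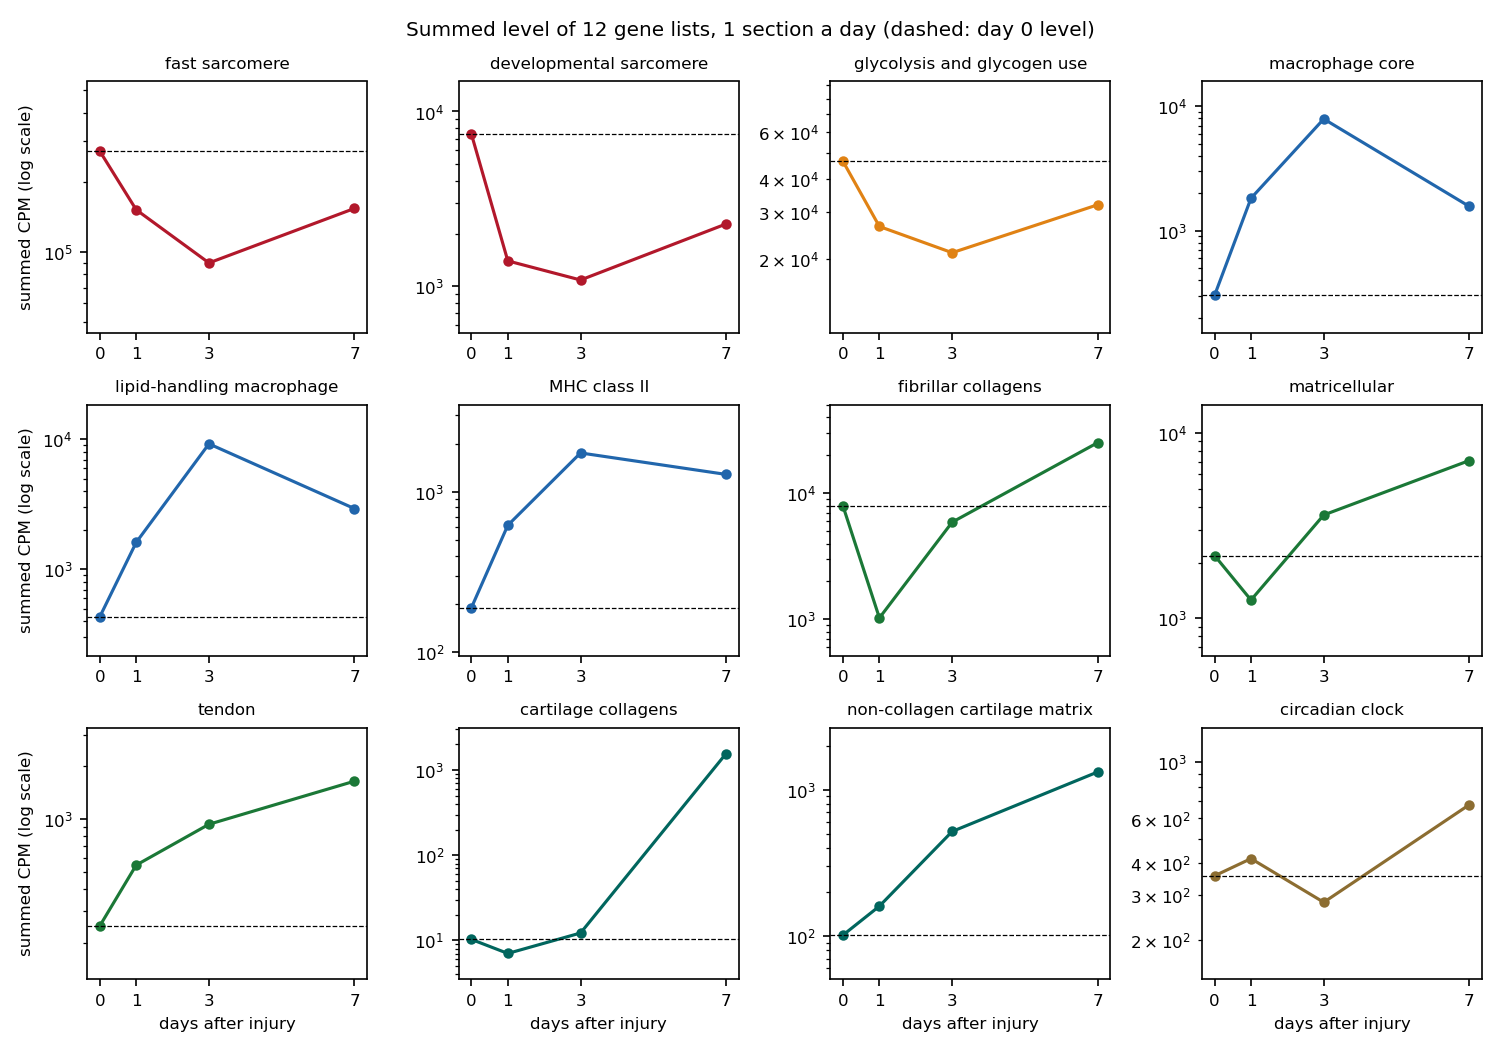
Summed level in CPM (log axis) of 12 gene lists in the day 0, 1, 3 and 7 sections, 1 section a day. Cartilage collagens rise only in the last section, from 12.2 to 1562 CPM. Fast sarcomere genes are lowest on day 3, at 89682 CPM, and reach 154162 CPM on day 7, beside 272260.0 CPM on day 0.

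To see whether a list was off baseline in few or many spots, each spot was thinned to 2000 UMIs, which left out 17 day 0 and 84 day 7 spots, and a day 7 spot was called above where its list UMIs exceeded the 95th percentile of day 0 spots. Cartilage collagens were above in 60.2% of day 7 spots and cytosolic ribosomal proteins in 50.3%, the only lists past 50%. For cartilage collagens that percentile was 0 UMIs, so the share counts spots with at least 1 such UMI, beside 1.99% on day 0. Lipid-handling macrophage genes were above in 48.8% of spots, lysosomal genes in 47.1%, non-collagen cartilage genes in 41.5%, tendon genes in 38.03% and fibrillar collagens in 30.4%. T and NK cell genes were above in 3.57% and dendritic cell genes in 4.62%. On the other side, 66.9% of day 7 spots lay below the 5th percentile of day 0 for fast sarcomere genes, 53.3% for developmental sarcomere genes and 47.3% for glycolysis. The developmental share varied by 17.4 percentage points between draws, and its 5th percentile averaged 3.5 UMIs. Most of that list's day 0 UMIs were Actc1, while 4 of its 7 genes rose. Spots are not replicates, and the shares describe these sections.

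Single genes varied in how evenly they lay over the day 7 section. Without thinning, Col2a1 was found in 0.287% of day 0 spots and 74.1% of day 7 spots, and after thinning in 0.0495% and 37.8%. The 10% of day 7 spots richest in Col2a1 held 68.7% of its UMIs. The same share was 64.8% for Acan, 66.2% for Ibsp and 51.04% for Col1a1. Spp1 (84.3%), Myh3 (83.7%) and Myh8 (81.9%) were held by fewer spots, while Acta1 was spread most evenly of these genes, at 25.7%. Bmp4 was found in 16.03% of day 0 spots and 10.8% of day 7 spots without thinning. Dbp was found in 64.01% of day 7 spots without thinning, between Acan (59.6%) and Col2a1 (74.1%). Its richest 10% of spots held 34.7% of its UMIs, a smaller share than for those 2 genes.

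**Figure D4:**
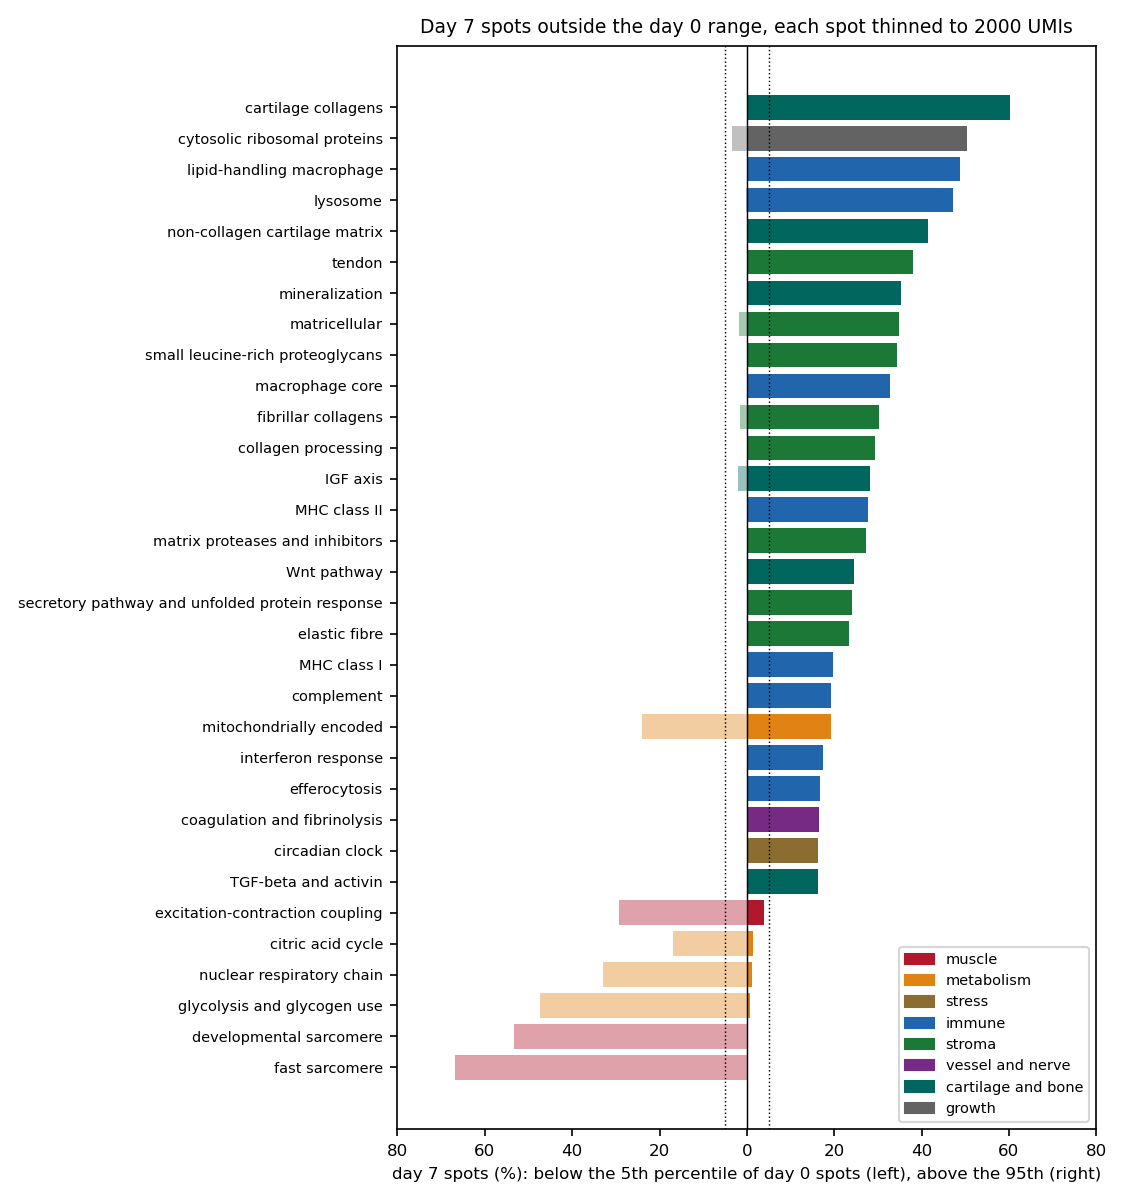
Percent of day 7 spots (x axis) outside the range of day 0 spots, after thinning to 2000 UMIs, for 32 gene lists (y axis), drawn to the right where above the 95th percentile and to the left where below the 5th. Cartilage collagens reach 60.2% above and fast sarcomere genes 66.9% below.

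Since the day 7 section held fewer fibre messages, the comparison was repeated in spots rich in them, a choice made after seeing the data. These were spots whose fast sarcomere share was at least 19.5% of UMIs, the 5th percentile of day 0, which kept 2001 of 2107 day 0 spots and 941 of 3032 day 7 spots. There, of 12382 genes, 861 (6.95%) rose and 224 (1.81%) fell, and the median gene was 0.21 higher. Of 68 lists 12 were above baseline and 1 was below. All 12 were also above in all spots. They were the cartilage collagens (median 5.34), the non-collagen cartilage matrix (6.02), the chondrogenic and osteogenic factors (1.38), the developmental sarcomere (3.17), CC chemokines (2.47), lipid-handling macrophage (2.06), MHC class II (1.95), monocyte (1.68), macrophage core (1.49), complement (1.21), matricellular (1.07) and circadian clock (1.03) lists. The fibrillar collagens were near baseline there (0.05), at 7352 CPM on day 0 and 6683 CPM on day 7, while the other 2091 day 7 spots held 32130.1 CPM. Cartilage collagens summed to 275 CPM in the fibre-rich day 7 spots and 2040.5 CPM in the others, beside 8.72 CPM in the fibre-rich day 0 spots. The clock list stood at 682 and 678 CPM inside and outside, against 358 CPM on day 0. In the fibre-rich spots the summed developmental sarcomere level fell, against its median, from 7720 to 2675 CPM. Red cell genes stayed below (-1.21). The fast sarcomere median of -0.25 is set by the choice of spots. Glycolysis (-0.11) and excitation-contraction coupling (0.13) were within 0.5 of 0 in these spots, and these too are lists of fibre genes.

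**Figure D5:**
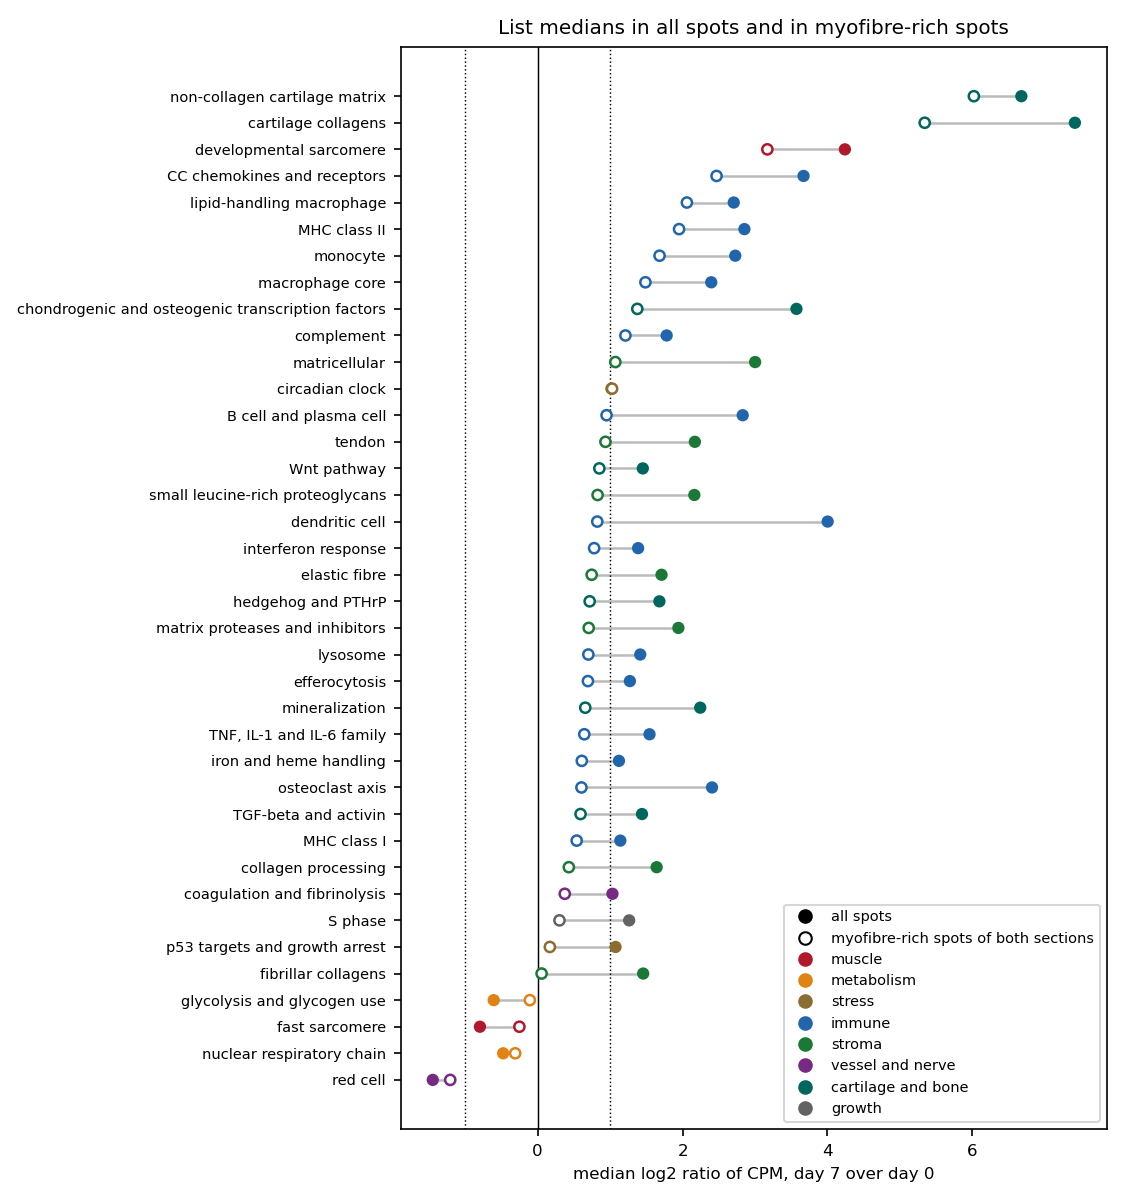
Median log2 ratio of CPM, day 7 over day 0 (x axis), for 38 gene lists (y axis). Filled points are all spots, open points are spots with a fast sarcomere share of at least 19.5%, and a line joins each pair. The cartilage lists stay far from 0 in both sets of spots, at 7.42 and 5.34 for the collagens, while the fibrillar collagens drop from 1.46 to 0.05.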

How the data were processed

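The authors captured tibial muscle sections of Nse-Bmp4 mice on Visium slides and deposited, for each section, raw UMI counts per feature and spot, made with Space Ranger (1.2.0 in the file headers) on mm10 per the labels' processing notes. Groups came from the sample labels, with 1 section a day. UMIs of all 32285 features were summed over all deposited spots of a section and divided by its total (CPM), and the log2 ratio of day 7 over day 0 was computed from the deposited counts. Genes with at least 50 UMIs over both sections entered, and a gene under 3 UMIs in a section was set to 3 there for its log2 ratio. A 2-fold ratio was a size rule and no test, because 1 section a group gives no p-value. Of 1 to 3 UMIs, the printed ratio is that of the counts. Intervals were exact binomial (Clopper-Pearson, 95%). Scaling factors came from edgeR 4.0.16 (TMM) and DESeq2 1.42.0 in R 4.3.3. The rest used Python 3.11.15 with NumPy 2.4.6, SciPy 1.17.1, pandas 2.3.3 and matplotlib 3.10.9. The calling step was tested on simulated data. Thinning used 10 draws (seed 1). Genes named by rule were the 15 highest and 15 lowest ratios among non-mitochondrial genes at 50 CPM or more in either section, the 10 largest rises and falls in CPM, and Bmp4, and the others are list members, named for having the highest or lowest ratio of a list, as defining markers or as exceptions, some after their values were seen. A few list members counted here are not reported by name. The comparison and the gene lists were chosen with earlier results of these data known. For 4 symbols given to more than 1 feature the feature with most UMIs was used, and Mx1 of the lists was not among the features. Promoters of 649 of 902 list genes matched the RefSeq table by symbol. Spot barcodes encode array positions, and 1539 occur in both sections. The slide or batch of each section is not given in the sources used here, so it cannot be told apart from the day.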

Additional observations from a re-analysis of the deposited data

How the results depend on the processing

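No paired analysis was possible because each day is 1 section and the result comes from no test. For the same reason no section could be left out. Genes higher and lower on day 7 numbered 4029 and 195 by CPM. They numbered 1713 and 753 with TMM, 1645 and 808 with DESeq2 size factors, and 2582 and 351 where mitochondrial, haemoglobin and sarcomere genes were left out of the total. Higher calls were 95.4%, 69.5%, 67.1% and 88.0% of all calls under these 4 scalings. A minimum of 10 UMIs gave 343 lower genes, 500 UMIs gave 2115 higher and 101 lower, a 3-fold rule 1766 and 55, and intervals wholly past 2-fold 2638 and 109. Spots rich in fibre genes, a setting chosen after seeing the data, gave 861 higher genes and 12 lists above. Lists above and below numbered 36 and 1 by CPM, 22 and 5 with TMM, 21 and 5 with DESeq2 factors, and 2 were below with the reduced total. The mean of spot proportions and a minimum of 1000 UMIs per spot moved no such count by more than 1.5 times. No list went from above to below under any of these scalings or filters. Thinning to 5000 UMIs put 5 lists above in over 50% of day 7 spots in place of 2, and the 99th and 1st percentiles put 0 above and 0 below in place of 2 and 2. Beyond what each rule's own construction changes, the cause was not tested. The neutrophil and the T and NK cell lists had fewer than 3 genes in the fibre-rich spots and gave no value there. Depth limits genes under 50 UMIs, 58 of the 901 list genes, to counts.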
